A study of Homo sapiens with 4 samples.

Results

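The transcripts of EGR1, ATF3, IER2, FOS, JUN, SPRY2 and SPRY4 were followed in BE(2)C, a long-established line of human neuroblastoma cells, after depletion of SSRP1. These 7 genes are among 14812 genes that the platform annotation named on the array. They were chosen from this comparison itself, from their differences between the groups in an earlier look at these data, with the AP-1 genes FOS and JUN set beside the other 5. Their differences are therefore described here and not tested. Cells received siRNA against SSRP1 (2 samples) or a non-targeting control siRNA (2 samples), both with a cationic lipid reagent, and RNA was taken 72 hours after transfection. The labels name 1 SSRP1 siRNA reagent, so an effect of the depletion and one of that reagent on other transcripts cannot be told apart. SSRP1 belongs to FACT, a histone chaperone complex that loosens and restores nucleosomes around moving polymerases.

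Immediate early genes are transcribed within minutes of a growth factor or stress signal, without new protein synthesis, and their RNAs are usually short lived. The ERK branch of the MAP kinase pathway phosphorylates ternary complex factors bound with SRF at CArG boxes, and CREB family factors act through CRE sites, both near the start of such genes. FOS and JUN proteins pair through leucine zippers to form AP-1, ATF3 is a bZIP partner induced by many stresses, and EGR1 is a zinc finger factor that binds GC-rich sites. Sprouty proteins are made in response to receptor tyrosine kinase signals and dampen the RAS to ERK cascade in return. These genes are usually read as transient responses, whereas the cells here were sampled days after transfection.

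The sequences upstream of these genes were examined for the sites through which they are classically induced. All 7 genes had at least 1 window in the RefSeq promoter table (GRCh38.p14), with 10 windows in all, since ATF3 had 2 and SPRY2 had 3 listed start sites. The 250 bases before each start were searched on both strands. The letters searched were TGACGTCA for the CRE, TGACG for its half-site, TGANTCA for the AP-1 site, TGACATCA for the AP-1 site of 8 letters in the JUN promoter, GCGNGGGCG for the EGR site, CCGGAA for an ETS core, TATAAA for a TATA box, and the CArG box by its consensus. A full CRE holds the half-site, and the other motifs share no such overlap. EGR1 and FOS are printed first because both are textbook SRF-regulated genes with unlike values below, ATF3 and JUN because both windows hold the same AP-1 site, and the Sprouty pair because both hold an EGR site. Each sequence runs 5′ to 3′ in the direction of transcription and ends at the base before the start, and capitals mark CArG boxes, CRE half-sites, AP-1 sites of 8 letters, EGR sites and TATA boxes.
EGR1, chr5:138465229-138465478, plus strand: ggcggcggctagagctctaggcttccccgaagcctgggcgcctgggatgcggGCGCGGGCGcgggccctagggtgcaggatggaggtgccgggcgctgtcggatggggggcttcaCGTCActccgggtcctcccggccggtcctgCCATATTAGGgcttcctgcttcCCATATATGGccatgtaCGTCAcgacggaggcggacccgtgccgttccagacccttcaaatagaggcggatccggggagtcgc
FOS, chr14:75278578-75278827, plus strand: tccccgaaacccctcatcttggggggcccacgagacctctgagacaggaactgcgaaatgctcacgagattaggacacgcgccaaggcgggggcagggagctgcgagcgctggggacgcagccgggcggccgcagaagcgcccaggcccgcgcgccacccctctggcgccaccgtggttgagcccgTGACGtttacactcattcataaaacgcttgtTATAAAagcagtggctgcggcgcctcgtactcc
ATF3, chr1:212565157-212565406, plus strand: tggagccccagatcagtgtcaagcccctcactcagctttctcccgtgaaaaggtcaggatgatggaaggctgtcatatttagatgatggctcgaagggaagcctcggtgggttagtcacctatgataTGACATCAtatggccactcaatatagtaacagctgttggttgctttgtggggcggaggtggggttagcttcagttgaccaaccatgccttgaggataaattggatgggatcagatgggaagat
JUN, chr1:58784048-58784297, minus strand: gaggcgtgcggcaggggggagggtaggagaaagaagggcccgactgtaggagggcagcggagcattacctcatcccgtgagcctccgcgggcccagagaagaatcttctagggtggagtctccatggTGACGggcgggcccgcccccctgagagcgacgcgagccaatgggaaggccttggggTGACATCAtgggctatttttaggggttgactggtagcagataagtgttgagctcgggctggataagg
SPRY2, chr13:80341127-80341376, minus strand: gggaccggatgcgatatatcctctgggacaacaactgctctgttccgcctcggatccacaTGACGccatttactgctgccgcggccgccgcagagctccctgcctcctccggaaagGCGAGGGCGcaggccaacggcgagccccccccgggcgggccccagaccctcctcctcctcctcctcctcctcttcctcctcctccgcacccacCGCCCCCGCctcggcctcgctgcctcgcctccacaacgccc
SPRY4, chr5:142324248-142324497, minus strand: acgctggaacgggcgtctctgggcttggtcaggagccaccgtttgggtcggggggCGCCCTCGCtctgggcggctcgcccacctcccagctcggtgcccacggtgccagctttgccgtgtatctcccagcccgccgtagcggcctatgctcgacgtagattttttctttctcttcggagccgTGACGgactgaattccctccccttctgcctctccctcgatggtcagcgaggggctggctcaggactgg

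The EGR1 window held 2 CArG boxes, CCATATTAGG at -105 to -96 and CCATATATGG at -83 to -74 from the start, and it was the 1 gene of the 7 with a match. Of all 35116 windows of that length, 1.16% held a CArG box. FOS had no match in these 250 bases, but bases farther upstream were not searched, so a CArG box there would be missed. Its window carried a half-site at -64 to -60 and a TATA box at -33 to -28. The half-site was present for 6 of the 7 genes, all except ATF3, against 21.2% of all windows, and SPRY2 had 3 windows in which a match could occur. TGACATCA was found in 1 window of ATF3, at -123 to -116, and in that of JUN, at -67 to -60, against 2.37% of all windows. EGR sites were found for 3 genes, EGR1, SPRY2 and SPRY4, against 8.41% of all windows, and an ETS core for IER2 and SPRY2, against 14.5%. Neither the full CRE nor TGANTCA was found in any of the 10 windows, where 1.65% and 6.57% of all windows hold them. A TATA box was matched for FOS and for the other ATF3 window, against 10.7%. ATF3 is known to use alternative promoters, and the array value does not say which start was used. The listed ATF3 starts may not include its main inducible promoter, so a half-site there would be missed.

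The siRNA target was checked first. SSRP1 read 7.42 and 6.97 on the SSRP1 siRNA arrays, against 9.05 and 9.23 on the control siRNA arrays, in log2 units of the RMA value. It fell by 1.95 on the log2 scale (SE 0.17, limma adjusted p = 0.0479), and the groups did not overlap. The adjusted p was 0.144 in a fit to all probe sets, 0.0512 with robust variances and 0.241 to 0.599 without any 1 array, so the call was lost there while the value lay between -2.17 and -1.72. Correlations over all probe sets were 0.991 between the SSRP1 siRNA arrays and 0.993 between the control siRNA arrays, and 0.990 to 0.991 across the groups. Among noradrenergic neuroblastoma markers 10 of 12 were measured, with control siRNA means between 6.69 for TH and 9.59 for DBH. The mean over these 10 markers was 8.39 and 8.47 on the SSRP1 siRNA arrays, against 8.56 and 8.58 on the control siRNA arrays, and none passed the test. Precision is limited by the number of arrays. The labels do not say whether the samples came from separate cultures, so errors and p-values cover only how far these samples differ from each other, and that spread may be technical.

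EGR1, ATF3, IER2, SPRY2 and SPRY4 all read higher on both SSRP1 siRNA arrays than on either control siRNA array, while FOS and JUN overlapped between the groups. Thus 5 of the 7 genes did not overlap in the upward direction, where 21.8% of all named genes did not. All 7 differences were above 0 (48.3% of all genes), and 5 reached 0.4 on the log2 scale (3.79% of all genes). The median difference was 0.44 over the 7 genes and -0.0072 over all genes. Since the genes were picked from this contrast, these shares say nothing further about them. More cells that express a gene and more of its RNA per cell cannot be told apart in these bulk samples.

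EGR1, the zinc finger factor, stood furthest apart. It read 8.27 and 8.04 with SSRP1 siRNA, against 7.15 and 7.20 with control siRNA. Both depleted samples lay well above the controls, which differed from each other by only 0.041. The group means were 8.15 ± 0.16 with SSRP1 siRNA and 7.17 ± 0.03 with control siRNA (SD, n = 2 each), a log2 difference of 0.98 ± 0.12 (SE) or 1.97-fold with a 95% interval of 1.61 to 2.41. Its difference ranked 53 from the top among the 14812 genes.

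A dimmer probe set is given to the same EGR1 accession by the annotation, which does not state its strand or position, so it may not read the EGR1 mRNA. That set read 4.92 and 4.81 with SSRP1 siRNA, against 4.01 and 4.14 with control siRNA, a log2 difference of 0.79. The groups were again apart.

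ATF3, the stress-induced bZIP factor, read 5.40 and 5.12 with SSRP1 siRNA, against 4.66 and 4.38 with control siRNA. The groups did not overlap, but each was spread over 0.28 between its arrays, a wider gap than EGR1 showed. The means were 5.26 ± 0.20 with SSRP1 siRNA and 4.52 ± 0.20 with control siRNA (SD, n = 2 each), a log2 difference of 0.74 ± 0.15 (SE) or 1.67-fold (95% interval 1.29 to 2.17). Its control siRNA mean lay just under the median level of all genes, 4.64, and no detection call is given for it.

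IER2, a nuclear protein named as an immediate early response gene, showed a smaller and tight difference. It read 7.21 and 7.09 with SSRP1 siRNA, against 6.78 and 6.69 with control siRNA. The lowest depleted sample stood 0.31 above the highest control. The log2 difference was 0.41 ± 0.11 (SE) or 1.33-fold (95% interval 1.11 to 1.60).

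FOS, the AP-1 subunit, read 5.28 and 4.99 with SSRP1 siRNA, against 5.14 and 4.85 with control siRNA. One depleted sample lay between the controls, and the gap within each group, 0.29, was larger than that between the means. The log2 difference was 0.14 ± 0.15 (SE), with a 95% interval of -0.24 to 0.52. That interval holds both no difference and one the size of that of IER2 or SPRY4. It was -0.0031 without SSRP1 siRNA replicate 1 and -0.00315 without control siRNA replicate 2. A dimmer set annotated to FOS, also of unstated strand, had a log2 difference of -0.031, with 3.67 and 4.06 with SSRP1 siRNA against 3.78 and 4.02 with control siRNA, and also overlapped.

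JUN, the partner of FOS, was the steadiest of the 7 genes. It read 7.13 and 7.06 with SSRP1 siRNA, against 7.09 and 7.03 with control siRNA. All 4 arrays fell within 0.099 of each other. The log2 difference was 0.035 ± 0.10 (SE), with a 95% interval of -0.21 to 0.28, whose upper end is 1.22-fold. Without SSRP1 siRNA replicate 1 it was -0.0024.

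**Figure D1:**
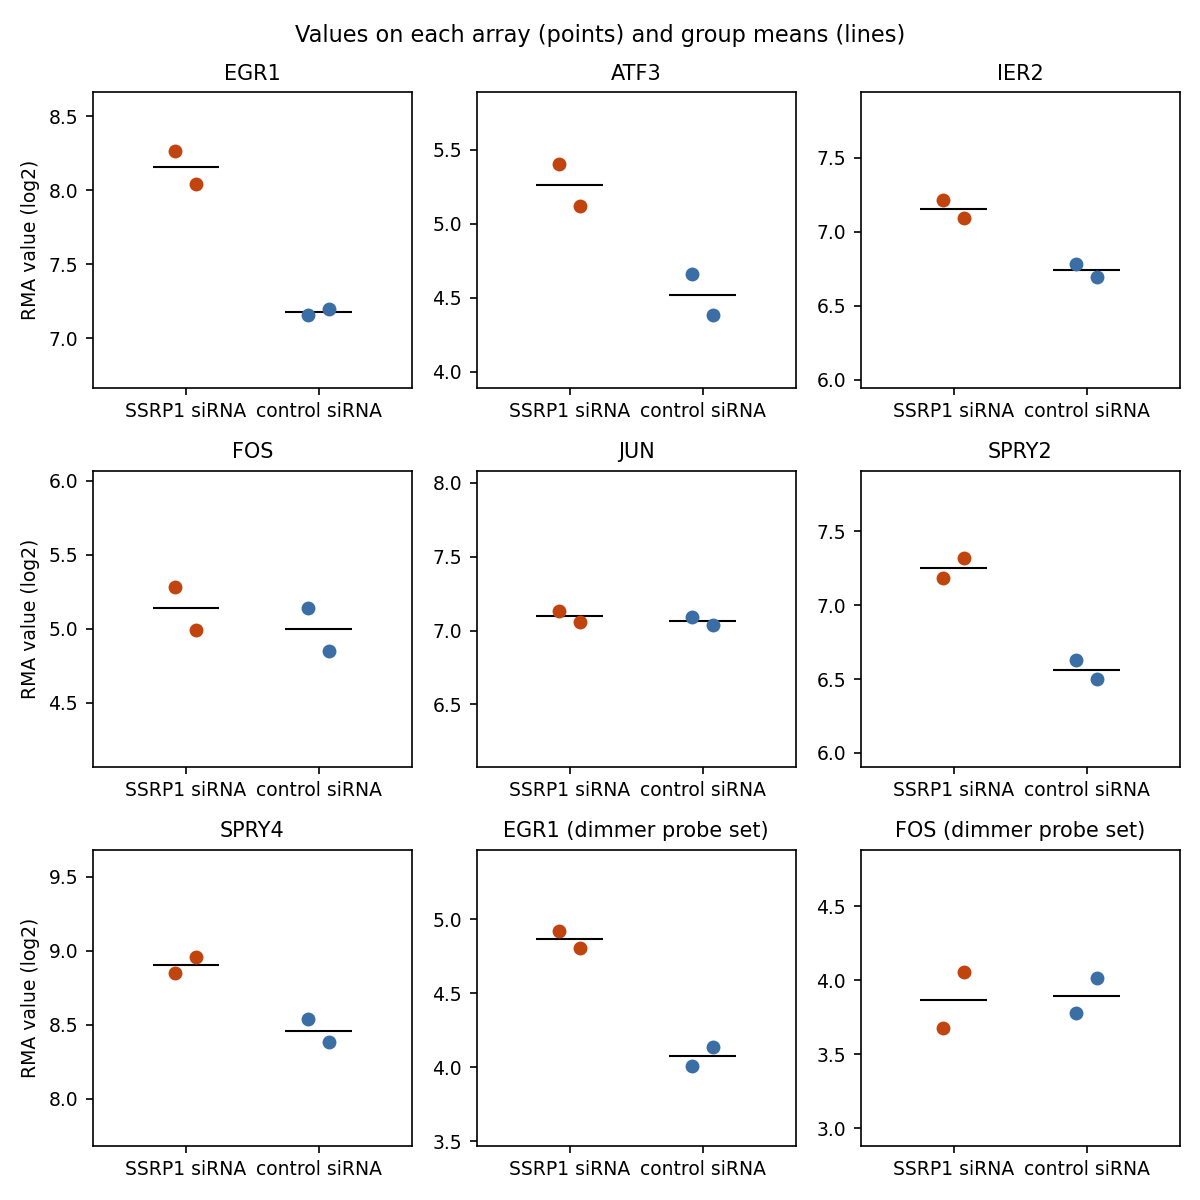
RMA values (log2, vertical axis, 2 units high in every panel) of the 7 genes and of the dimmer probe sets of EGR1 and FOS on each array, SSRP1 siRNA left and control siRNA right, with points for arrays and lines for group means. EGR1, ATF3, IER2, SPRY2 and SPRY4 show SSRP1 siRNA points above all control siRNA points, while FOS and JUN interleave.

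The Sprouty genes encode the feedback arm. SPRY2, which restrains signalling from receptors such as those for FGF to RAS and ERK, read 7.19 and 7.32 with SSRP1 siRNA, against 6.63 and 6.50 with control siRNA. Every depleted sample lay at least 0.56 above every control, and the arrays of a group differed by 0.13. The means were 7.25 ± 0.09 with SSRP1 siRNA and 6.56 ± 0.09 with control siRNA (SD, n = 2 each), a log2 difference of 0.69 ± 0.11 (SE) or 1.61-fold (95% interval 1.33 to 1.95).

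SPRY4, its paralog with the same inhibitory role, read 8.85 and 8.96 with SSRP1 siRNA, against 8.54 and 8.38 with control siRNA. The groups were separate, by 0.31 at the nearest arrays, about as far as for IER2. The log2 difference was 0.44 ± 0.11 (SE) or 1.36-fold (95% interval 1.12 to 1.65). The intervals of SPRY2 and SPRY4 overlapped. SPRY1 was not analysed here, and SPRY3 had a log2 difference of -0.13 (limma 95% interval -0.48 to 0.23). SPRY3 was dim, with a control siRNA mean of 3.34, under the median level of all genes, 4.64.

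**Figure D2:**
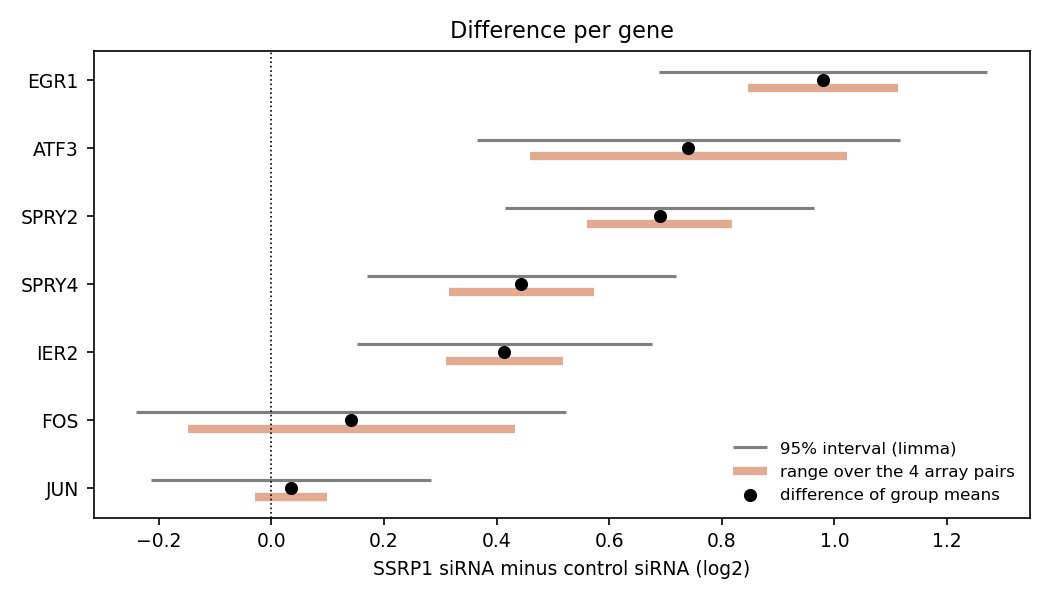
Log2 difference, SSRP1 siRNA minus control siRNA (horizontal axis), of each gene, with black points for the difference of group means, grey lines for limma's 95% interval and red bars for the range over the 4 array pairs across groups. EGR1 lies at 0.98, ATF3 and SPRY2 near 0.7, SPRY4 and IER2 near 0.4, and the bars of FOS and JUN cross 0.

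The genes were also compared with each other through their values on the 4 arrays, each centred on its own mean, by Euclidean distance on the log2 scale. IER2 and SPRY4 were nearest, at 0.168, followed by SPRY2 and SPRY4 at 0.247 and FOS and JUN at 0.250. EGR1 and JUN were the farthest pair, at 0.954. FOS lay 0.872 from EGR1 and 0.599 from ATF3. These distances mostly follow the sizes of the differences, and with 4 arrays they are descriptions only.

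Among all genes at or above the median level, the 3 with the closest pattern were named for each gene whose arrays spanned at least 0.5. For EGR1 these were ANGPT1, a ligand of the TIE2 receptor (distance 0.111), HEY1, a Notch-responsive repressor (0.119), and the kinase gene MAP3K3 (0.147). Their log2 differences were 1.02, 0.87 and 0.88. For ATF3 they were TLR5, the flagellin receptor, ANKRD50 and the filament gene VIM, at distances of 0.043 to 0.081. IER2 was nearest to the cathepsin genes CTSV and CTSB and to RGL2, at 0.040 to 0.051. SPRY2 was nearest to INPP5F, a phosphoinositide phosphatase, PODXL, a sialomucin, and ABAT, the enzyme that breaks down GABA, at 0.062 to 0.065. SPRY4 was nearest to IRX3, a homeobox gene (0.018), STN1, a telomere maintenance gene (0.023), and KLF10 (0.031). None of the 7 genes was among the closest of another.

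Genes that act with these 7 were then examined through 11 lists, with 136 of 206 genes measured. KLF2, a Krüppel-like factor, was the 1 gene that passed the limma test over all genes, where 0.0945% of all genes passed, 0.081% upward and 0.0135% downward. It read 7.54 and 7.56 with SSRP1 siRNA, against 5.89 and 5.96 with control siRNA, a log2 difference of 1.62 ± 0.10 (SE, adjusted p = 0.0267). The median difference over the 136 genes was -0.019, and 63 of them lay above 0 (46.3%, against 48.3% of all genes). At an unadjusted p under 0.05 limma gave 19 of them upward and 8 downward, where 6.56% and 6.03% of all genes did so (12.6% together). With a variance trend 7 of the 136 passed, where 1.45% of all genes did, KLF2, RHOB, MCL1, ATF6B, DUSP10 and EPHA2 upward and PIM1 downward. None of the 136 passed in the limma fit to all probe sets (20 were under 0.05 before adjustment) or without any 1 of the 4 arrays (16 to 22).

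The closest relatives of EGR1 had values on both sides of 0 and none of 4 passed. NAB2, a corepressor that binds EGR1 and is itself an EGR1 target, had a log2 difference of 0.44 (adjusted p = 0.321), EGR3 one of 0.32 and NAB1 one of -0.35. EGR1 thus had a larger difference than EGR3 or EGR4 (0.019), without a test of that gap. The levels were unlike too, with control siRNA means of 3.88 for EGR3 and 3.00 for EGR4, against 7.17 for EGR1. EGR3 and EGR4 lay under the median level of all genes, 4.64. Among 10 other AP-1 and MAF genes the median was -0.022 and none passed, with MAFF at 0.48 (adjusted p = 0.311), JUNB at 0.29 and FOSL2 at -0.25. FOS and JUN, at 0.14 and 0.035, lay within the range of that list.

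For ATF3, 12 CREB and ATF genes and 9 ATF4 and stress response targets were measured, and none passed. The CREB and ATF list had a median of -0.023, with ATF6B, an endoplasmic reticulum stress sensor, at 0.45 (adjusted p = 0.203), CREB3L1 at 0.30 and CREB3L2 at -0.28. ATF4 itself had a difference of -0.070 and DDIT3, the CHOP factor induced with ATF3 in that response, one of 0.029. DDIT3 was dim, with a control siRNA mean of 3.63, under the median level of all genes, 4.64. It read 3.40 and 3.93 with SSRP1 siRNA, against 3.44 and 3.83 with control siRNA. Its limma interval of -0.51 to 0.57 is too wide to say whether DDIT3 changed. In the target list the lipoprotein receptor gene VLDLR had 0.92 (adjusted p = 0.193), the leucine sensor gene SESN2 had 0.51 and ASNS, asparagine synthetase, had -0.30. The median there was 0.029, with 5 of 9 genes above 0 (against 48.3% of all genes).

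The other immediate early genes had a median difference of 0.20, with 10 of 17 measured genes above 0 (against 48.3% of all genes). Besides KLF2 the values farthest from 0 belonged to RHOB, a rapidly induced small GTPase, at 0.93 (adjusted p = 0.111), and to the kinase gene PIM1 at -0.94 (adjusted p = 0.0631). IER2 at 0.41 had IER3 at 0.26 and IER5 at 0.21 beside it in that list.

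The Sprouty genes were set beside a list of other ERK feedback and dual-specificity phosphatase genes, of which 15 were measured. Not every gene of that list is specific to ERK feedback. None of the 15 passed, 6 lay above 0 (against 48.3% of all genes), and the median was -0.052. DUSP10, a phosphatase that prefers JNK and p38, had 0.63 (adjusted p = 0.195), DUSP1 had 0.33 and DUSP9 had -0.48. DUSP6, the cytoplasmic ERK phosphatase often induced together with SPRY2 and SPRY4, had 0.14, and DUSP4 and DUSP5 had -0.10 and -0.18. SPRY2 and SPRY4 thus lay above each of these 3 phosphatase genes in their differences, without a test of the gap. DUSP6 read 4.65 and 4.56 with SSRP1 siRNA, against 4.69 and 4.24 with control siRNA, so its groups overlapped. Its limma interval of -0.27 to 0.55 held the SPRY4 difference of 0.44 but not the SPRY2 difference of 0.69. These values do not show a gap between SPRY4 and DUSP6.

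Other readouts of ERK signalling gave values of both signs, where 48.3% of all genes lay above 0. Of 11 ERK output genes none passed and 4 lay above 0. EPHA2, an ephrin receptor, had 0.72 (limma adjusted p = 0.107), CCND1, cyclin D1, had 0.36 and VGF, a neurotrophin-induced secretory protein, had -0.48. EREG, HMGA2, LIF and EPHA4 were dim, with control siRNA means of 2.70, 2.93, 3.46 and 3.63. Those levels lay under the median level of all genes, 4.64. The ETS factors ETV1, ETV4 and ETV5, usual companions of Sprouty induction, had -0.064, -0.041 and -0.16. Of 8 genes of SRF, its cofactors and its cytoskeletal targets none passed and 2 lay above 0, with VCL, vinculin, at -0.39 (adjusted p = 0.241), TPM1 at 0.22 and FHL2 at -0.14. SRF itself had -0.058.

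The signalling components upstream of these 7 genes also had no gene past the test, and their signs are given where 48.3% of all genes lay above 0. Of 15 RAS to ERK components 4 lay above 0, with differences between -0.19 for GAB2 and 0.23 for HRAS, and SOS1 at -0.19. Of 12 JNK and p38 components 8 lay above 0, with MAPK10 at 0.22, MAPK9 at 0.21 and MAPK12 at -0.18. Of 23 receptor tyrosine kinases and ligands 11 lay above 0, with FGFR1 at 0.52, FGFR4 at -0.52 and ERBB4 at -0.62 (adjusted p = 0.225).

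**Figure D3:**
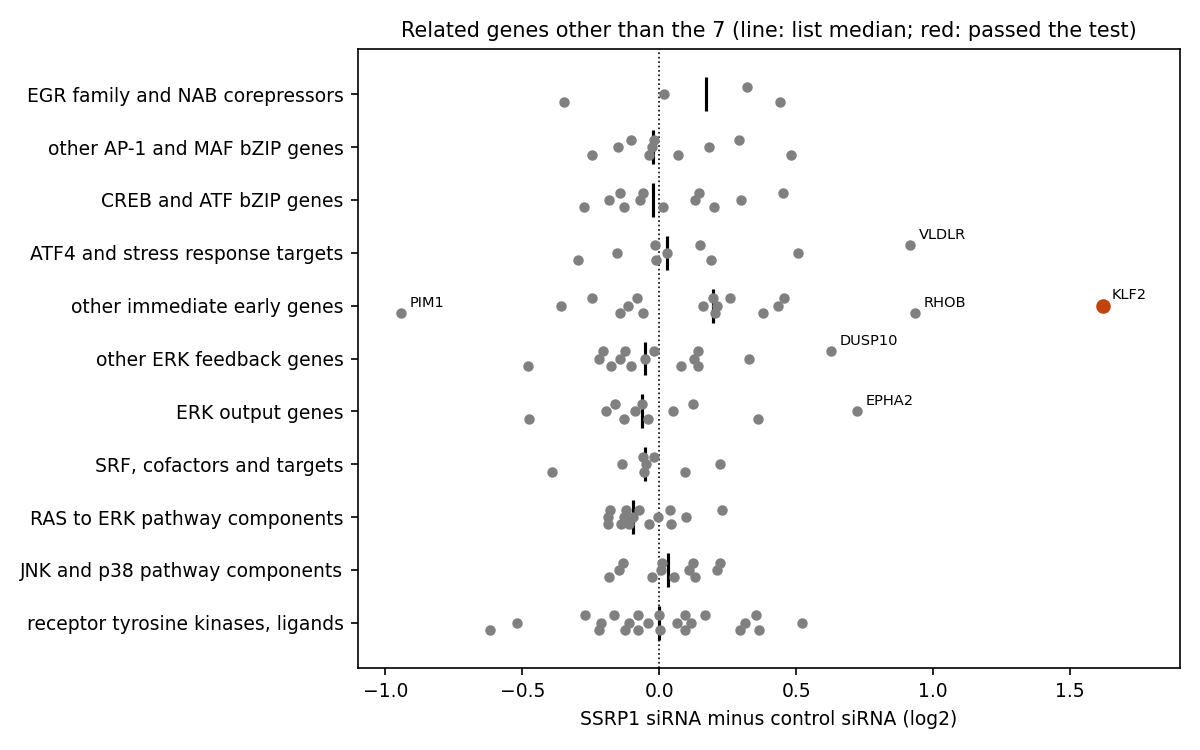
Log2 difference, SSRP1 siRNA minus control siRNA (horizontal axis), of 136 measured genes in 11 related lists, with 1 point per gene, black lines for list medians and red for a gene past the limma test. KLF2 at 1.62 is the red point, and most other genes lie within 0.5 of 0.

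Markers of other cell types were set beside these results. In the Schwann and glial list 5 of 9 genes were measured, in the fibroblast list 3 of 8 and in the blood and endothelial list 4 of 8, and none passed. The 3 fibroblast markers had log2 differences of 1.20 (LUM), 0.25 (THY1) and -0.041 (DCN). Their mean level was 5.86 and 5.97 on the SSRP1 siRNA arrays, against 5.29 and 5.60 on the control siRNA arrays. Over the Schwann and glial markers it was 4.49 and 4.56 with SSRP1 siRNA, against 4.39 and 4.42 with control siRNA, with S100B at 0.47, ERBB3 at 0.12 and SOX10 at 0.040. Over the blood and endothelial markers it was 3.94 and 4.02 with SSRP1 siRNA, against 4.02 and 4.10 with control siRNA, with CD2 at -0.27, CD14 at 0.22 and CD68 at -0.21. Of the 10 neuroblastoma markers measured, 2 lay above 0 and 8 below (48.3% of all genes lay above 0), with DBH at -0.77, DDC at 0.43 and HAND2 at -0.38. RMA values give no detection call, so 0 is not defined for these markers, and their part in the differences of the 7 genes was not tested.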

How the data were processed

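The values are the authors' deposited log2 expression levels, 1 column for each of 4 arrays and 1 row per probe set, computed by RMA according to the submitters' processing notes. Which software ran it, and on which probe set definition, is not given in the sources used here. The log2 scale was read from the values (0.502 to 12.8). Per the labels' protocols, 100 ng of total RNA was labelled with biotin for Affymetrix whole-transcript arrays. Of 46255 probe sets 15835 had 1 gene symbol in the platform annotation, 0 had several and 30420 were unnamed here. The named sets covered 14812 genes, and for the 651 genes with several sets, EGR1 and FOS among them, the one with the highest mean was used.

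limma (version 3.58.1 in R 4.3.3, lmFit and eBayes) compared SSRP1 siRNA with control siRNA over all named genes, two-sided, with Benjamini-Hochberg adjustment and a threshold of 0.05. Every p-value of a single gene is from this fit, with 2 residual and 3.79 prior degrees of freedom. Related genes were named where they passed the test or had 1 of the 3 largest differences in size in their list, and other genes were chosen after their values were seen. The 7 genes, the lists and the tests were chosen with earlier results of these data known. Alternatives were a replicate block, a variance trend, robust variances, quantile normalization, median centring, mean of probe sets, a level filter, all probe sets, a threshold of 0.1 and each array left out.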

Additional observations from a re-analysis of the deposited data

Results flagged for a closer look

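A second probe set is annotated to EGR1 that the comparison did not use, with no strand or position stated, and its values were above the level of the control arrays on both SSRP1 siRNA arrays. The log2 difference there was 0.79, against 0.98 for the set that was used. Groups of 2 arrays allow no check for a single outlying sample.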

How the results depend on the processing

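The replicate block, the variance settings, the level filter and the fit over all probe sets leave the differences of the 7 genes as they are by construction, and a left-out array can move them only within the spread of its group. Quantile normalization and median centring could move them, and did so by less than the spread between replicates, and so did the mean of probe sets for EGR1 (0.886) and FOS (0.056). Leaving out 1 array gave 0.868 to 1.09 for EGR1, 0.599 to 0.883 for ATF3, 0.355 to 0.474 for IER2, 0.624 to 0.755 for SPRY2, 0.368 to 0.520 for SPRY4, -0.00315 to 0.287 for FOS and -0.0024 to 0.072 for JUN. Using the dimmer probe set, an alternative chosen after seeing the data, moved EGR1 to 0.79. The 14 genes past the limma test became 28 after quantile normalization, 23 after median centring, 215 with a variance trend, 179 among genes at or above the median level (where fewer genes were tested), 9 with robust variances, 41 at an adjusted p under 0.1 and 0 over all probe sets, where limma gave 3854 at an unadjusted p under 0.05. Without any 1 array limma gave 0 in each case, with between 1200 and 1672 genes under 0.05 before adjustment. The 1 related gene past the test became 7 under the variance trend, 4 with the level filter, 2 after quantile normalization, 2 at an adjusted p under 0.1, 0 over all probe sets (20 under 0.05 before adjustment in limma) and 0 without any 1 array (16 to 22). The SSRP1 difference of -1.95 kept its size but had a limma adjusted p of 0.0512 with robust variances and 0.144 over all probe sets, and without 1 array it ran from -2.17 to -1.72 with an adjusted p of 0.241 to 0.599. Other causes of these shifts were not tested.

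The arrays share replicate numbers, but no label says that a number marks a shared batch. Same-numbered arrays deviated together weakly, with a correlation of 0.114 over all genes, and 4 of the 7 genes (ATF3, IER2, FOS and JUN) read higher on replicate 1 than on replicate 2 in both groups, as did 27.6% of all genes. With the replicate block 6 genes passed, and the SSRP1 difference of -1.95 had a limma adjusted p of 0.0569.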

Other observations

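Genes beside these 7 on the chromosomes were looked at after the other values had been seen. Taking the 2 nearest measured genes on each side, by order in the RefSeq table, gave 28 neighbours. Their log2 differences ran from -0.97 to 0.33 with a median of -0.043, and 10 of the 28 lay above 0 (48.3% of all genes). None passed the limma test over all genes, and 3 had an unadjusted p under 0.05, where 12.6% of all genes did. EGR1 lies between REEP2 at 0.078 and HSPA9, a mitochondrial chaperone gene, at -0.069, while EGR1 itself had 0.98. SPRY2 has NDFIP2, a ubiquitin ligase adaptor gene, beside it at 0.20. SPRY4 has NDFIP1, the related adaptor gene, at -0.13 on one side and FGF1, a fibroblast growth factor gene, at -0.33 on the other. FGF1 was dim, with 2.32 under SSRP1 siRNA against 2.65 under control siRNA, both under the median level of all genes, 4.64. The neighbour farthest from 0 was ARHGAP26, near SPRY4, with 5.04 under SSRP1 siRNA against 6.02 under control siRNA (limma adjusted p = 0.214).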
